A study of Mus musculus with 4 samples.

Results

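ATP-binding cassette (ABC) genes were examined in hematopoietic stem cells (HSCs) with and without *Id2*. All rows of the expression table whose symbol begins with Abc, a subfamily letter from a to g and a digit were taken, which gave 32 of 19354 genes. The genes were chosen by name and not by their values. RefSeq lists 50 mouse symbols of this form, and the other 18, among them *Abcg5*, *Abcg8*, *Abcb11* and *Abcc2*, were not analysed here. HSCs, sorted as LSK FLT3- CD48- CD150+ bone marrow cells, came from *Mx1-Cre* *Id2+/+* or *Mx1-Cre* *Id2fl/fl* mice aged 8 to 16 weeks, 2 weeks after polyinosinic:polycytidylic acid (pIpC). Both genotypes carried the Cre transgene, which pIpC switches on through its interferon-responsive promoter, and both received pIpC, so the control HSCs had been exposed to the same treatment. In *Id2fl/fl* mice the recombinase removes the floxed gene, and the cells are then called *Id2Δ/Δ*. Cells were pooled from 14 *Id2+/+* and 15 *Id2fl/fl* mice in 2 experiments, and each genotype gave 2 RNA libraries, here called replicates 1 and 2. The labels do not tie a library to an experiment or to particular mice, so the p-values below measure only the spread between these libraries.

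ABC proteins bind and hydrolyze ATP on a pair of nucleotide-binding domains, and most use it to move a substrate across a membrane. Full transporters carry both domains in a single chain, whereas the shorter transporters of subfamilies D and G work as dimers. HSCs are known for strong dye efflux: ABCG2 exports Hoechst dye and sets the side population, and P-glycoprotein, made in mice from *Abcb1a* and *Abcb1b*, exports rhodamine. Members of other subfamilies load cholesterol onto lipoproteins, serve heme and iron-sulfur cluster synthesis in mitochondria, import fatty acids into peroxisomes, or act on ribosomes without transporting anything.

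ID2 has no DNA-binding domain of its own and holds E proteins away from DNA, where they bind the E-box, CANNTG. Promoter windows of 300 bases, from 250 bases before to 50 after the start site (RefSeq, GRCm38.p6), were matched by symbol for 24 of the 32 genes. Each gene was counted by 1 window, the nearest to the start of its longest transcript, whereas all windows of every gene make up the background. The *Abcb1a* window lies 92986 bases from that start and is not shown. Of the 24 windows, 21 (87.5%) held CANNTG, which reads the same on both strands, against 72.3% of all 32851 windows in the table. The hypoxia response core, searched as ACGTG or GCGTG on both strands, was in 14 windows (58.3%) against 43.8% of all windows. CACGTG counts for both motifs. The windows of *Abcg2* and *Abcb1b* are shown as those of the dye-efflux genes, and those of *Abca3* and *Abca17* because these neighbors start 964 bases apart on opposite strands of chromosome 17. Capitals mark CANNTG, and each line reads 5′ to 3′ on the gene's strand.
*Abcg2*, chr6:58596422-58596721, plus strand: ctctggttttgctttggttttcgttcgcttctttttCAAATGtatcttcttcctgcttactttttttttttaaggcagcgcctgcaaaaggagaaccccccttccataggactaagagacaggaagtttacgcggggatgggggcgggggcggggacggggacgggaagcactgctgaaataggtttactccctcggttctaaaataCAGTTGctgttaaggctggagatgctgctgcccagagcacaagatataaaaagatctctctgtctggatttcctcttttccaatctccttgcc
*Abcb1b*, chr5:8797897-8798196, plus strand: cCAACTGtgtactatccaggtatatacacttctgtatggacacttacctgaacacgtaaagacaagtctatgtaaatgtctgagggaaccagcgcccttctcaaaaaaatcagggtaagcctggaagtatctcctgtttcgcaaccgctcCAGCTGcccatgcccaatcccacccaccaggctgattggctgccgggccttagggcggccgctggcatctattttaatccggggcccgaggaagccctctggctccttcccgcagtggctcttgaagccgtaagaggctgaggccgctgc
*Abca3*, chr17:24351773-24352072, plus strand: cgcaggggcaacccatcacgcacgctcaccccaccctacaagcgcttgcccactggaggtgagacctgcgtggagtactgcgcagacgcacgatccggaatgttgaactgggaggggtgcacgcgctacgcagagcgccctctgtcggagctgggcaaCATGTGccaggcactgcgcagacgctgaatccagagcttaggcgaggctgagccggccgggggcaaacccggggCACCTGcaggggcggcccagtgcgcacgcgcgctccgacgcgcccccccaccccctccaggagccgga
*Abca17*, chr17:24351010-24351309, minus strand: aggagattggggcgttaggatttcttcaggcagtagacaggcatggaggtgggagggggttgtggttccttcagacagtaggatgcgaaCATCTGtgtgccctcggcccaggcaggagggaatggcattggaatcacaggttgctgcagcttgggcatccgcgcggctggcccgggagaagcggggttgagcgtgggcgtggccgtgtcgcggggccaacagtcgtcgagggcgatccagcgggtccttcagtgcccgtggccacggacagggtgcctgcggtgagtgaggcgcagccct
*Abcg2* has 3 windows in the table, and the window nearest the start of its longest transcript is shown. A match of these letters is a description of the window only.

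Values were log2 CPM (counts-per-million), quantile-normalized by the authors, and depths recovered from low values were 14200000 to 15700000 reads in *Id2+/+* and 17800000 to 18800000 in *Id2Δ/Δ* libraries. *Id2* itself was read 93 and 98 times in the control libraries and 0 times in both *Id2Δ/Δ* libraries, and a count of 0 allows up to 3 reads. HSC markers *Kit*, *Hlf*, *Mecom* and *Slamf1* were present in every library. The 10 HSC markers summed to 4517 and 4432 CPM in *Id2+/+* and 3077 and 3655 CPM in *Id2Δ/Δ* libraries. Among them 4 were lower at an unadjusted p under 0.05 and 0 higher, where 2.95% and 1.72% of all tested genes were. *Kit*, the most abundant of the 10 in every library, weighs most in these sums, with a log2 difference of -0.63 (SE 0.13). Of the 10 estimates, 7 were below 0 and 3 above, where 48.3% and 51.7% of all tested genes were. Those above were *Slamf1* at 0.26 (SE 0.15), *Hoxb5* at 0.25 (SE 0.32) and *Ly6a* at 0.14 (SE 0.15). Markers of other cells that the gate could hold were summed in the same way. The 10 neutrophil markers summed to 283 and 170 CPM in *Id2+/+* and 261 and 141 CPM in *Id2Δ/Δ* libraries. The 7 megakaryocyte markers analysed summed to 459 and 524 CPM in *Id2+/+* and 529 and 608 CPM in *Id2Δ/Δ* libraries, and 2 of them, *Pf4* and *Gp1bb*, were higher at an unadjusted p under 0.05 and 0 lower. Of the 7 estimates, 6 were above 0 and 1 below, where 51.7% and 48.3% of all tested genes were. *Ppbp* had a log2 difference of -0.39 (SE 0.42), *Vwf* 0.00 (SE 0.28) and *Itga2b* 0.06 (SE 0.16). The 9 erythroid markers summed to between 49.1 and 72.8 CPM, the 6 macrophage markers to between 26.2 and 28.1 CPM, and the 4 endothelial markers to between 7.7 and 13.1 CPM over the 4 libraries. *Flt3* and *Cd48*, which the gate excludes, summed to 48.3 to 57.7 CPM, and the B-cell and T-cell lists held 2 and 1 genes, at 33.6 to 51 and 21.2 to 23.5 CPM. The macrophage markers did not move together: *Mrc1* had 6 and 5 reads in *Id2+/+* and 0 in both *Id2Δ/Δ* libraries, *C1qb* had 11 and 6 against 36 and 20, and *Csf1r* had 337 and 347 against 414 and 390 in the deeper libraries. The part of other cells in the values below was not tested, and in such bulk libraries fewer cells of a type and less RNA per cell cannot be told apart.

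Levels were compared between genes as CPM per kilobase (kb) of the longest GENCODE M21 transcript, averaged over the 4 libraries. The ribosome-linked proteins led. *Abce1*, whose product splits ribosomes after termination, stood at 61.9 CPM per kb, above 93.2% of all tested genes, and *Abcf1*, a translation initiation factor, at 43.1 CPM per kb. *Abcf2* followed with 37.1, *Abcg3*, a rodent relative of *Abcg2*, with 31.1, and *Abcc1* with 29.4 CPM per kb. The library ranges of *Abce1*, 57.6 to 66.7 CPM per kb, and of *Abcf1*, 41.5 to 44.7, stood apart from each other and from all genes below them. From *Abcf2* down to *Abcb4*, each gene's range overlapped that of the next, as it did in 26 of the 31 neighboring pairs. The order of such neighbors is not resolved by the spread of the libraries. Genes further apart can be told apart, as *Abcf2*, at 31.6 to 39.8, and *Abcb4*, at 6.32 to 9.29 CPM per kb. *Abcg2* was 10th at 25.3 CPM per kb (24.2 to 27.2), close to *Abcf3*, *Abca7* and *Abcb8*, at 26.3, 26.2 and 27.2 CPM per kb. At the other end, *Abca17*, *Abcb6*, *Abca8b* and *Abcd2* were under 0.5 CPM per kb. By total CPM, 26 of the 32 genes had a mean of at least 10 CPM and 6 of at least 100 CPM. The order depends on the length used: with the median length of a gene's transcripts, *Abca2* at 327, *Abcg2* at 218 and *Abcf1* at 180 CPM per kb led, ahead of *Abce1* at 122.

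**Figure D1:**
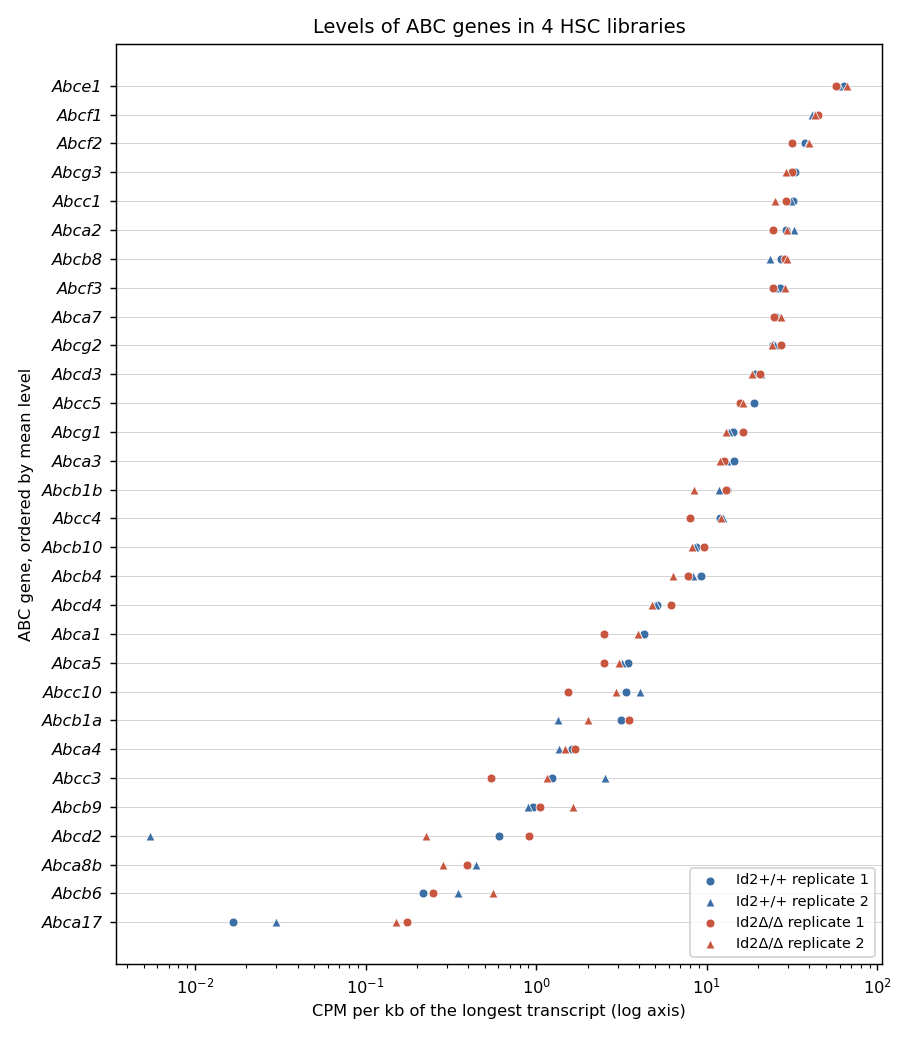
Levels of 30 ABC genes in CPM per kb of the longest transcript, on a log axis, with a point for each of the 4 libraries (blue, *Id2+/+*; red, *Id2Δ/Δ*; circles, replicate 1; triangles, replicate 2). The genes run from *Abce1* at 61.9 to *Abca17* at 0.0934 CPM per kb, and the 4 points of most genes lie close together beside this span; the lowest *Abcd2* point is a library with 0 reads, plotted at its normalized value.

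Whether the loss of *Id2* changed these genes was asked by comparing the genotypes with limma across the 15895 genes that averaged 1 CPM or more, 31 of them ABC genes. *Abca17* was under this limit. At an adjusted p under 0.05, 0 of the 31 genes were called (limma, Benjamini-Hochberg), and 0% of all tested genes were, so the comparison sets no ABC gene apart from the spread of the libraries. The adjusted p-values of the ABC genes ran from 0.91 to 0.993. At an unadjusted p under 0.05 there was 1 lower gene, *Abcc10*, against 2.95% of all tested genes, and there were 0 higher genes, against 1.72%. Of the 31 genes, 13 had an estimate above 0 and 18 below 0, where 51.7% and 48.3% of all tested genes did, and the median log2 difference was -0.06, beside 0.01 over all tested genes. Both *Id2Δ/Δ* values lay above both *Id2+/+* values in 3 genes, *Abcb8*, *Abcb9* and *Abcf1*, against 19% of all tested genes. They lay below both in 6, *Abcc10*, *Abcc3*, *Abcc1*, *Abcb4*, *Abca5* and *Abca3*, against 15.8%. ABC transcripts are long, with a median of 5136 bases against 2955 over all tested genes. After a correction of every library for transcript length, 3 genes lay below, the median was -0.04 and 0 genes had an unadjusted p under 0.05.

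The differences were small for most members. In 19 of the 31 genes the estimate was within 0.25 on the log2 scale and in 28 within 0.5, and it reached 1 in 2 genes, *Abcc3* and *Abcd2*. For 24 genes the 95% interval of the difference lay within 1 on the log2 scale in both directions, so a change of 2-fold or more was outside the interval for these, and for 14 genes it lay within 0.5. The summed level of all 32 genes was 2371 and 2335 CPM in *Id2+/+* and 2198 and 2279 CPM in *Id2Δ/Δ* libraries, with both *Id2Δ/Δ* sums below both controls. Sums here and below were not corrected for transcript length, and sums of other gene sets were not compared.

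**Figure D2:**
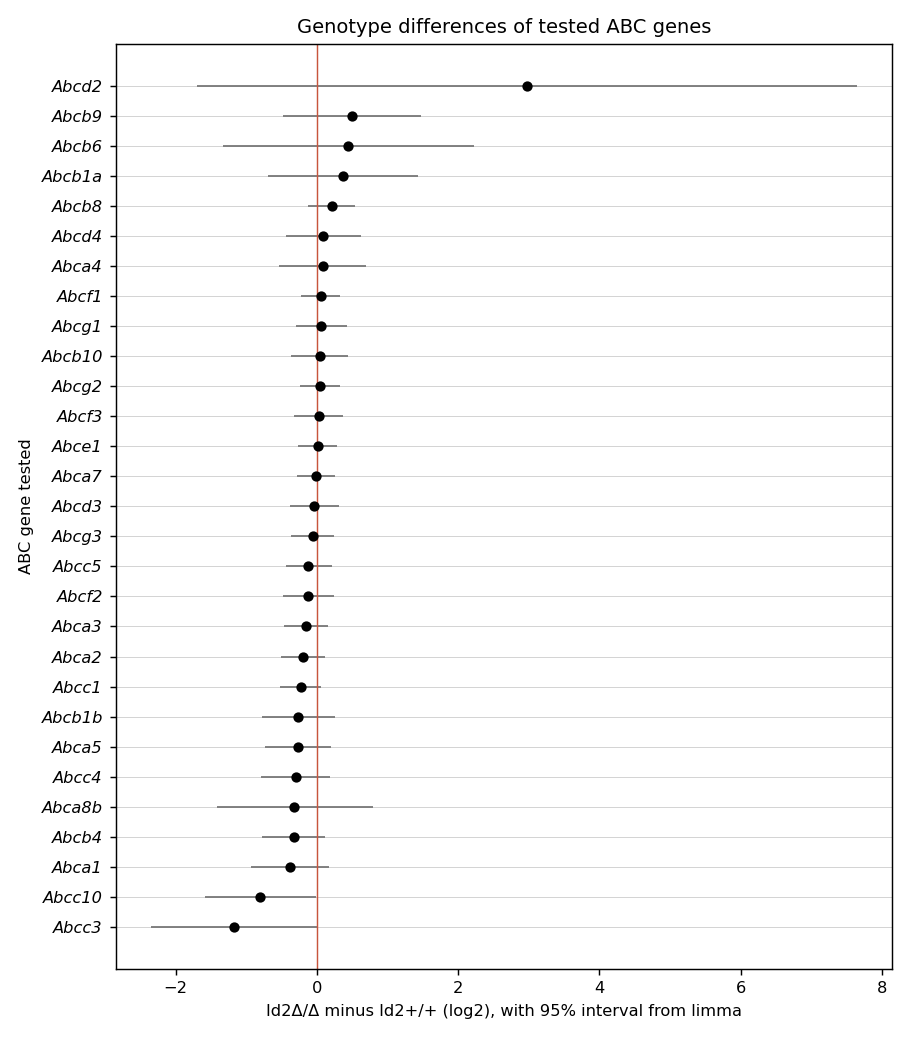
Difference between genotypes (*Id2Δ/Δ* minus *Id2+/+*, log2) of 29 tested ABC genes, as points with 95% intervals from limma. The estimates run from -1.17 for *Abcc3* to 2.98 for *Abcd2*, whose interval of -1.69 to 7.65 is the widest, and only the interval of *Abcc10*, -1.58 to -0.01, leaves out 0.

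Dye-efflux genes were read first. *Abcg2* stood at 7.14 and 7.17 log2 CPM in the *Id2+/+* libraries and at 7.28 and 7.11 in the *Id2Δ/Δ* libraries. The *Id2Δ/Δ* values lay on either side of the controls. The log2 difference between genotypes, *Id2Δ/Δ* minus *Id2+/+* here and below, was 0.04 (standard error, SE, 0.12), with a 95% interval of -0.24 to 0.33 and a Benjamini-Hochberg adjusted p of 0.961 by limma. No 50-base window of the *Abcg2* transcript occurs in the transcript of another GENCODE gene. *Abcb1b* stood at 5.83 and 5.67 log2 CPM in *Id2+/+* and 5.79 and 5.18 in *Id2Δ/Δ* libraries. Only the value of *Id2Δ/Δ* replicate 2 was apart from the rest, and the log2 difference of -0.26 (SE 0.22, 95% interval -0.78 to 0.26) ranged from -0.56, without *Id2Δ/Δ* replicate 1, to 0.04, without *Id2Δ/Δ* replicate 2.

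*Abcb1a* had 224 and 107 reads in *Id2+/+* and 311 and 183 reads in *Id2Δ/Δ* libraries, or 3.98 and 2.75 against 4.13 and 3.34 log2 CPM. Replicate 2 was the lower library in both genotypes, and the genotypes overlapped. Between genotypes the difference was 0.37 (SE 0.45), with a 95% interval of -0.69 to 1.43. Without *Id2+/+* replicate 2 it was -0.25, and without *Id2Δ/Δ* replicate 1 it was -0.03. Per length, *Abcb1b* stood at 12.5 ± 0.984 and *Abcb1a* at 2.25 ± 1.28 CPM per kb (SD, n = 2) in *Id2+/+* HSCs, and in each of the 4 libraries *Abcb1b* was the higher of the pair.
The 2 coding sequences are 88% identical over 3819 aligned bases, so reads can be shared between them. Of 4948 windows of 50 bases in the longest *Abcb1a* transcript, 840 (17%) occur in another gene, mostly *Abcb1b*, and of 4257 in *Abcb1b*, 779 (18.3%) do. The longest identical run has 338 bases. Its first 90 bases are shown with the 30 bases before it, in capitals where the 2 genes differ, because reads from the identical part cannot be assigned to either gene by sequence.
*Abcb1a*, coding bases 1327 to 1446: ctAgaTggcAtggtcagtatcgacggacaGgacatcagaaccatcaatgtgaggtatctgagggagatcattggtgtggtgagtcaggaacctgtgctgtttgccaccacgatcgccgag
*Abcb1b*, coding bases 1336 to 1455: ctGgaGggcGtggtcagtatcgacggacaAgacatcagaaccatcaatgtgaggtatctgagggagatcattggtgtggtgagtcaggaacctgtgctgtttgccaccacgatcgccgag
How the authors' counting divided such reads is not given in the sources used here, and the levels of *Abcb1a* and *Abcb1b* are uncertain to that extent.

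**Figure D3:**
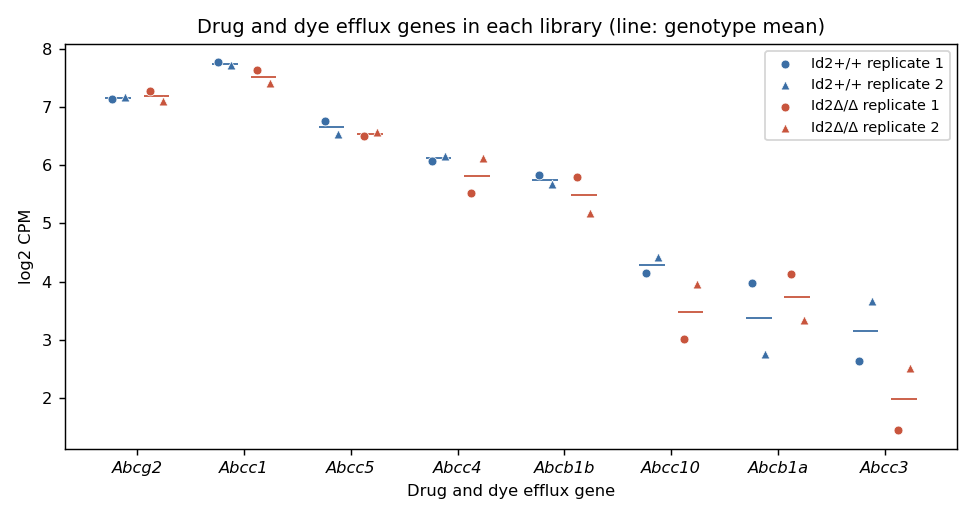
The 8 drug and dye efflux genes in each library, in log2 CPM (blue, *Id2+/+*; red, *Id2Δ/Δ*; circles, replicate 1; triangles, replicate 2; lines, genotype means). *Abcg2* lies between 7.11 and 7.28 in all 4 libraries, whereas *Abcc1*, *Abcc10* and *Abcc3* have both red points below both blue points and *Abcb1a* has its triangle below its circle in both genotypes.

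The C subfamily exports organic anions and conjugates, and held the largest negative estimates. *Abcc10*, which encodes MRP7, had 250 and 331 reads in *Id2+/+* and 142 and 287 reads in *Id2Δ/Δ* libraries, which is 4.14 and 4.42 against 3.02 and 3.95 log2 CPM. The libraries of the genotypes did not overlap, and *Id2Δ/Δ* replicate 2 lay much nearer to the controls than replicate 1 did. The log2 difference was -0.80 (SE 0.34, unadjusted p = 0.0477, adjusted p = 0.91, both by limma), and it was -1.26 without *Id2Δ/Δ* replicate 2 and -0.33 without *Id2Δ/Δ* replicate 1. *Abcc3*, which encodes MRP3, an exporter of glucuronide and bile acid conjugates, had 90 and 199 reads in *Id2+/+* and 48 and 102 reads in *Id2Δ/Δ* libraries. Both *Id2Δ/Δ* values, 1.44 and 2.52 log2 CPM, were below both controls, 2.64 and 3.66, and replicate 2 was above replicate 1 by 1.02 in *Id2+/+* and 1.08 in *Id2Δ/Δ*. Its log2 difference was -1.17 (SE 0.50, unadjusted p = 0.0511, adjusted p = 0.91, limma), with a range of -1.71 to -0.63 over the fits that omit 1 library.

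*Abcc1*, which encodes the glutathione conjugate exporter MRP1, had the highest mean of the efflux genes per length of the longest transcript. Its library range overlapped that of *Abcg2*. With the median transcript length *Abcg2* led the efflux genes, at 218 CPM per kb. *Abcc1* stood at 7.77 and 7.73 log2 CPM in *Id2+/+* and at 7.64 and 7.41 in *Id2Δ/Δ* libraries, so that both *Id2Δ/Δ* values were lower. This was a difference of -0.23 log2 (SE 0.12, unadjusted p = 0.108, adjusted p = 0.91, limma), and -0.14 after the correction for transcript length. It was -0.34 without *Id2Δ/Δ* replicate 1 and -0.11 without *Id2Δ/Δ* replicate 2. *Abcc4*, whose product exports cyclic nucleotides and nucleotide analogs, stood at 6.08 and 6.16 log2 CPM in *Id2+/+* and 5.52 and 6.12 in *Id2Δ/Δ* libraries. Only *Id2Δ/Δ* replicate 1 was apart, and without it the log2 difference of -0.30 (SE 0.21) became 0.0046. *Abcc5*, a related nucleotide exporter, had overlapping libraries and a log2 difference of -0.12 (SE 0.14). Over the 8 drug and dye efflux genes, 6 estimates were below 0 and 2 above, where 48.3% and 51.7% of all tested genes were. Of these 8 genes 0 were called, as were 0% of all tested genes. The summed level of the 8 was 633 and 611 CPM in *Id2+/+* against 575 and 540 CPM in *Id2Δ/Δ* libraries.

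Sterol exporters were next. *Abca1*, which loads cholesterol onto apolipoprotein A-I, stood at 5.46 and 5.34 log2 CPM in *Id2+/+* and at 4.69 and 5.34 in *Id2Δ/Δ* libraries. Here again *Id2Δ/Δ* replicate 1 was low and replicate 2 was level with a control. The log2 difference was -0.38 (SE 0.24, 95% interval -0.93 to 0.17), and it was -0.71 without *Id2Δ/Δ* replicate 2 and -0.06 without *Id2Δ/Δ* replicate 1. *Abcg1*, which passes cholesterol to mature lipoprotein particles, stood at 6.38 and 6.30 in *Id2+/+* and 6.57 and 6.23 in *Id2Δ/Δ* libraries, a log2 difference of 0.06 (SE 0.16, 95% interval -0.30 to 0.43). Of 15 genes of sterol supply and sensing, 0 were called at an adjusted p under 0.05 (limma), 2 were lower at an unadjusted p under 0.05 and 0 higher, against 2.95% and 1.72% of all tested genes. Both *Id2Δ/Δ* values lay above both controls in 5 of the 15 and below in 2, where 19% and 15.8% of all tested genes did, and the median difference was 0.00. *Insig1*, the sterol-responsive anchor of the SREBP system, was among the lower genes. It stood at 6.30 and 6.29 log2 CPM in *Id2+/+* and at 5.66 and 5.82 in *Id2Δ/Δ* libraries, with both *Id2Δ/Δ* libraries lower. Its difference was -0.55 (SE 0.14, unadjusted p = 0.00562, adjusted p = 0.91, limma) and lay between -0.63 and -0.48 with any 1 library omitted. *Nr1h3*, which encodes the sterol-activated receptor LXRα that induces *Abca1* and *Abcg1*, had 31 and 38 reads in *Id2+/+* and 90 and 57 reads in *Id2Δ/Δ* libraries, a log2 difference of 0.86 (SE 0.46, unadjusted p = 0.104, limma). *Nr1h2*, of the same list and more abundant, stood at 6.32 and 6.39 log2 CPM in *Id2+/+* and again at 6.32 and 6.39 in *Id2Δ/Δ* libraries. Its log2 difference was 0.00 (SE 0.13).

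Among the other A-subfamily genes, whose products move lipids, *Abca2*, *Abca7* and *Abca3* had the highest levels, at 28.9, 26.2 and 13 CPM per kb, and *Abca5* followed at 3.05. Of the 6 tested, 1 estimate was above 0 and 5 below, where 51.7% and 48.3% of all tested genes were. The median of the 6 was -0.18, before any correction for transcript length. With the length correction, *Abca2* went from -0.19 to -0.09 and *Abca7* from -0.01 to 0.07. *Abca4* went from 0.08 to 0.17 and *Abca8b* from -0.32 to -0.22. *Abca3*, which packs surfactant lipids in lung, stood at 6.54 and 6.41 in *Id2+/+* and at 6.35 and 6.28 in *Id2Δ/Δ* libraries, and the log2 difference was -0.16 (SE 0.13). Its genotypes did not overlap, though the inner libraries were close, and after the length correction the difference was -0.08. *Abca5* had 403 and 409 reads in *Id2+/+* and 365 and 478 reads in the deeper *Id2Δ/Δ* libraries, or 4.84 and 4.71 against 4.36 and 4.65 log2 CPM. That gave a difference of -0.27 log2 (SE 0.20), and it was -0.16 after the length correction, -0.12 without *Id2Δ/Δ* replicate 1 and -0.42 without *Id2Δ/Δ* replicate 2. *Abca4*, the retinoid transporter of photoreceptors, was present at 158 to 219 reads in every library with a log2 difference of 0.08 (SE 0.26), and *Abca8b* at 36 to 52 reads with -0.32 (SE 0.47).

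*Abca17* was the least abundant member, at the limit of detection in the controls. The controls held 2 and 3 of its reads, and the *Id2Δ/Δ* libraries 16 and 13. Summed over a genotype and divided by depth, 29 reads against 5 is a ratio of 4.74, with an exact 95% interval of 1.81 to 15.7 that covers counting error only. In the fit without a filter on low values, its log2 difference was 2.87 (unadjusted p = 0.027, adjusted p = 0.895, limma). *Abca3*, its neighbor across the shared start region, had the estimate of -0.16 given above, and 145 of 5268 windows of the *Abca17* transcript (2.75%) also occur in *Abca3*, which had 77.6 to 93 CPM in the 4 libraries. *Abcb4*, the phosphatidylcholine translocator of bile next to *Abcb1b* on chromosome 5, stood at 5.24 and 5.08 log2 CPM in *Id2+/+* and 4.99 and 4.69 in *Id2Δ/Δ* libraries, a log2 difference of -0.32 (SE 0.19) without overlap, which was -0.47 without *Id2Δ/Δ* replicate 1 and -0.17 without *Id2Δ/Δ* replicate 2.

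Of the 4 mitochondrial transporters, 3 estimates were above 0 and 1 below, where 51.7% and 48.3% of all tested genes were. Of these 4 genes 0 were called, as were 0% of all tested genes. *Abcb10*, needed for heme synthesis in erythroid cells, stood at 5.23 and 5.21 log2 CPM in *Id2+/+* and 5.37 and 5.14 in *Id2Δ/Δ* libraries, with a log2 difference of 0.04 (SE 0.17, 95% interval -0.36 to 0.44). The genotypes overlapped. *Abcb8* stood at 6.38 and 6.17 in *Id2+/+* and at 6.48 and 6.50 in *Id2Δ/Δ* libraries, so both *Id2Δ/Δ* values were higher, and the log2 difference was 0.21 (SE 0.14, unadjusted p = 0.173, adjusted p = 0.91, limma), which became 0.10 without *Id2+/+* replicate 2 and 0.32 without *Id2+/+* replicate 1. *Abcb6*, a porphyrin transporter, had 12 to 36 reads. Its estimate was 0.44 (SE 0.76). Of its 3723 windows of 50 bases, 2486 (66.8%) occur also in *Gm29253*, an annotated transcript on the same strand that overlaps 55.2% of its exonic bases, so its low level is uncertain. Of 16 genes of heme and iron-sulfur cluster synthesis, 0 were called (limma), as were 0% of all tested genes. At an unadjusted p under 0.05 there were 0 of the 16, against 2.95% of all tested genes lower and 1.72% higher. The smallest p-value was that of *Cpox*, a heme synthesis enzyme, at 5.36 and 5.37 log2 CPM in *Id2+/+* and 4.88 and 5.11 in *Id2Δ/Δ* libraries, a log2 difference of -0.37 (SE 0.17, unadjusted p = 0.0691).

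Among the 3 peroxisomal importers of fatty acids, 0 were called, as were 0% of all tested genes. *Abcd3*, which encodes the 70-kDa class of peroxisomal membrane protein, had a log2 difference of -0.04 (SE 0.15). *Abcd2* had 49 and 0 reads in *Id2+/+* and 90 and 21 reads in *Id2Δ/Δ* libraries. Replicate 2 was far below replicate 1 in both genotypes, and the genotypes overlapped. The fitted log2 difference of 2.98 (SE 2.00, 95% interval -1.69 to 7.65) rests on the library with 0 reads, where the value is set by the normalization, and without *Id2+/+* replicate 2 it was -0.41. The lysosomal transporters *Abcb9*, of peptides, and *Abcd4*, of cobalamin, had log2 differences of 0.50 (SE 0.42) and 0.09 (SE 0.22). *Abcb9* had 52 reads in each control and 68 and 107 in the knockouts, or 1.82 and 1.71 against 1.94 and 2.59 log2 CPM. *Id2Δ/Δ* replicate 1 was close to the controls, and the difference was 0.17 without *Id2Δ/Δ* replicate 2 and 0.83 without *Id2Δ/Δ* replicate 1. Of 8 genes of peroxisomal import and fatty acid oxidation, 0 were called. At an unadjusted p under 0.05 there were 0 of the 8, against 2.95% of all tested genes lower and 1.72% higher. *Hsd17b4*, an enzyme of peroxisomal fatty acid oxidation, had the smallest p, with a log2 difference of 0.31 (SE 0.18).

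The 4 ribosome-linked genes had estimates between -0.12 and 0.06. *Abce1* stood at 7.92 and 7.82 log2 CPM in *Id2+/+* and at 7.77 and 7.98 in *Id2Δ/Δ* libraries, a log2 difference of 0.01 (SE 0.12, 95% interval -0.27 to 0.29). *Abcf1* stood at 7.08 and 7.04 against 7.14 and 7.09, with both *Id2Δ/Δ* values above both controls, and a difference of 0.06 (SE 0.12). *Abcf2* and *Abcf3* had -0.12 and 0.03, each with an SE of 0.15 and overlapping libraries, and *Abcg3* had -0.06 (SE 0.13). Among 5 genes of ribosome rescue and its stress response, *Gcn1l1*, a ribosome-bound activator of that response, had the smallest p, with a log2 difference of -0.32 (SE 0.17, unadjusted p = 0.0977).

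ABC genes that carry other names were set beside these. *Tap1* and *Tap2*, the peptide transporter of antigen presentation, stood at 8.22 and 7.97, and at 8.27 and 8.07 log2 CPM in *Id2+/+* libraries, and at 7.95 and 8.00, and 8.04 and 8.07 in *Id2Δ/Δ* libraries. Their log2 differences were -0.12 and -0.11, each with an SE of 0.12. *Cftr*, a chloride channel of the C subfamily, had 21 and 33 reads in *Id2+/+* and 0 and 57 reads in *Id2Δ/Δ* libraries, so the *Id2Δ/Δ* libraries lay on both sides of the controls. *Nfe2l2*, an inducer of several *Abcc* genes, had a log2 difference of 0.11 (SE 0.13). Over all 58 partner genes tested, 31 estimates were above 0 and 27 below, where 51.7% and 48.3% of all tested genes were. Of the 58, 0 were called, as were 0% of all tested genes, and the median was 0.01, beside 0.01 over all tested genes.

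Replicates of a genotype differed more for several members than the genotypes did. The median absolute difference between replicates over the 31 genes was 0.13 on the log2 scale in *Id2+/+* and 0.29 in *Id2Δ/Δ* HSCs, beside 0.19 and 0.29 over all tested genes, and the *Id2Δ/Δ* difference was the larger in 25 of the 31 genes (80.6%) and in 63.2% of all genes. Both replicates 2 lay above both replicates 1 in 7 genes (22.6%), against 16.1% of all tested genes, and below in 8 (25.8%), against 16.8%. *Abcd2*, *Abcb1a*, *Abcb6* and *Abcc3* differed by 0.69 or more between replicates in each genotype and in the same direction in both. Neutrophil markers also moved with the replicate number: all 10 were lower in replicate 2 than in replicate 1 of both genotypes, and in 9 both replicates 2 lay below both replicates 1. *S100a8*, for example, stood at 5.18 and 3.79 log2 CPM in *Id2+/+* replicates 1 and 2 and at 4.75 and 2.04 in *Id2Δ/Δ* replicates 1 and 2. Their part in the replicate differences of the ABC genes was not tested. The replicate differences of the 2 genotypes had a Pearson's r of 0.745 over the 31 genes and 0.676 without *Abcd2*. Over all 15895 tested genes, r was 0.0592. These are correlations across genes of the same 4 libraries, which are not independent replicates.

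**Figure D4:**
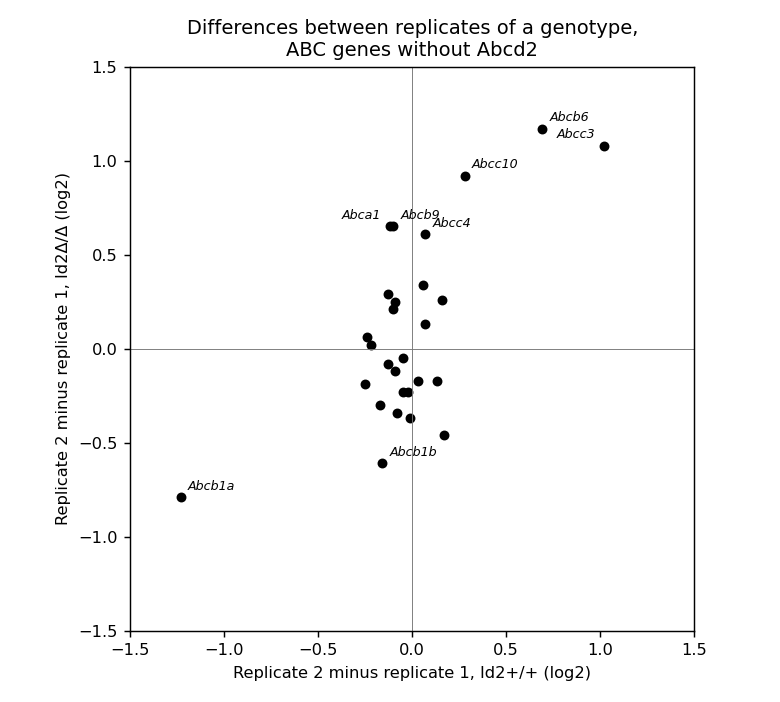
Replicate 2 minus replicate 1 in *Id2+/+* (horizontal) and *Id2Δ/Δ* HSCs (vertical), both in log2, for 28 tested ABC genes, without *Abcd2*, which lies at -6.78 and -2.00. *Abcc3* and *Abcb6* lie at the upper right and *Abcb1a* at the lower left, and most other genes spread more along the vertical axis than along the horizontal.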

How the data were processed

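Bulk RNA-Seq libraries of sorted HSCs, 2 per genotype, were used. The authors deposited log2 counts-per-million values for 19354 genes in 4 columns. The unit was read from the values: taken back from log2, each column sums to between 999980 and 999996, and 88.4% of ranks differ by less than 0.1 between sorted columns, as after quantile normalization. The submitters' processing notes name CASAVA 1.8.4, Trimmomatic 0.30, TopHat2 2.0.8, RSEM and STAR and the builds mm9 and NCBIM37, with no roles. Strand use, the treatment of shared reads and the gene filter are not given in the sources used here, so overlapping or antisense genes are uncertain. No coordinates were taken from the files' build; promoters are RefSeq windows on GRCm38.p6. Lengths came from GENCODE M21 (GRCm38), in which 99.7% of the Ensembl identifiers were found.

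Below 32 CPM, the rank of a distinct value in a library was taken as its number of reads, which assumes whole counts. On simulated whole counts for 19354 genes, 100% of such reads came out exactly. The simulation made the same assumption, so it checks the steps and cannot tell whether the authors' counts were whole. Depth was the median of (reads + 0.5) divided by CPM between 2 and 32 CPM. Reads above that were not recovered, so no count model was run. The 15895 genes that averaged 1 CPM or more were tested without a pseudocount by limma 3.58.1 in R 4.3.3 (lmFit, then eBayes with trend on, no covariate besides genotype, two-sided, p-values adjusted by Benjamini-Hochberg). On simulated data for 15895 genes, the calls included 55 of 200 genes given a log2 change of 1, and 132 of 200 given a change of 2. They also included 5 and 8 unchanged genes. The simulated libraries were independent, without shifts by replicate number, so these shares may not hold for the real libraries. The length correction fitted a natural spline (5 degrees of freedom) of length to the deviations in each library and subtracted it. Exact binomial intervals cover counting error only.

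Named genes were the 5 highest per length, those without overlap between genotypes with the 5 smallest p-values in each direction, 11 fixed members, members with 0 reads, and the partner gene with the smallest p in each list. *Insig1*, *Nr1h3*, *Nr1h2*, *Tap1*, *Tap2* and further members are named outside this rule, after their values were seen. The members and lists were chosen with earlier results of these data known. Some genes under this rule are not reported here by name, and they remain in the counts, medians and sums.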

Additional observations from a re-analysis of the deposited data

How the results depend on the processing

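Of the ABC and partner genes, 0 were called at an adjusted p under 0.05 under every alternative run, and the smallest adjusted p of an ABC gene was 0.266, for *Abca1*, *Abcc10* and *Abcc4* without *Id2Δ/Δ* replicate 2. The number lower at an unadjusted p under 0.05, 1 as reported, was 2 with a pseudocount of 1, 0 without a filter, 0 without the intensity trend, 2 with the replicate block, 0 with the length correction, 2 with the length correction and the block, and 0 to 5 when each library was left out, with 5 without *Id2Δ/Δ* replicate 2 and 3 without *Id2Δ/Δ* replicate 1. The number higher, 0 as reported, was 1 without a filter, 1 with the block, 1 with length correction and block, and 0 to 1 when each library was left out. The genes counted under the block were *Abcc3* (unadjusted p = 0.00962), *Abcc10* and *Abcd2*, with adjusted p-values of 0.791 to 0.8 from limma. The labels do not say that the replicate numbers pair libraries, and deviations correlated between equal numbers with r = 0.0592 over all tested genes and 0.745 over the 31 ABC genes.

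With 1 library left out, the count above both controls ranged from 4 to 10 and the count below from 10 to 16, against 3 and 6 with all 4, because fewer values must be separated. With the length correction the count below was 3, with or without the block. The median log2 difference ranged from -0.10, without *Id2Δ/Δ* replicate 2, to -0.04. The median level of the 32 genes, 12.3 CPM per kb, was 24 with the median transcript length and 11.8 to 13 when each library was left out.

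Of 76 log2 differences of 19 named ABC genes with 1 library left out, 11 reversed. The changes of filter, intensity trend and block leave the estimates as they are and could not turn a sign. *Abce1* reversed under median-ratio rescaling (-0.0029), which shifted the median of all genes by -0.0129. With 1 library left out at a time, where a lone library is assumed to vary like the others, the log2 difference crossed 0 for *Abcb1a* (-0.25 to 0.98), *Abcb1b* (-0.56 to 0.04), *Abcb10* (-0.08 to 0.16), *Abcc4* (-0.60 to 0.0046), *Abcd2* (-0.41 to 6.37), *Abce1* (-0.10 to 0.12), *Abcf2* (-0.29 to 0.05), *Abcg1* (-0.11 to 0.23), *Abcg2* (-0.04 to 0.13) and the partner *Cftr* (-5.03 to 0.95). The cause was not tested.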
